A study of Drosophila melanogaster with 12 samples.

Results

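The miCLIP library of the earliest *Drosophila* embryos was compared, gene by gene, with their mRNA-seq library (T1, 0 to 45 min after egg laying). Genes entered the comparison when their value was 1 FPKM (fragments normalized for gene length and sequencing depth) or more in each library, which 5383 of the 14977 genes of the table did. For each of these genes the ratio is log2((miCLIP + 1)/(mRNA-seq + 1)), so that a ratio of 1 is a 2-fold higher value in miCLIP and a ratio of -1 a 2-fold lower value. The embryos were untreated and mass-collected, and their strain is Canton S in the collection protocol and yw in the strain field of the sample records. The next collection, T2 (45 to 90 min), was likewise planned to precede zygotic transcription, although the time at which eggs are laid limits such staging. Both assays used the same RNA, with the anti-m6A antibody ab151230 (Abcam) in miCLIP and none in mRNA-seq, and the sample records give their molecule as polyA RNA. There was 1 library on each side, so that no difference described here has a replicate check, and no p-value is given.

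N6-methyladenosine (m6A) is the commonest internal base modification of eukaryotic mRNA. It is placed by a nuclear complex around the catalytic subunits METTL3 (Ime4 in flies) and METTL14 (CG7818 in the table), with accessory proteins such as WTAP (fl(2)d), virilizer (vir) and Spenito (nito), and it is read by proteins with a YTH domain. In miCLIP, RNA is fragmented, bound by an antibody against m6A, cross-linked to it with ultraviolet light, and the bound fragments are purified and sequenced. The value of a gene in miCLIP therefore follows both the amount of its RNA and how well its fragments are bound and recovered, and the mRNA-seq value follows the amount of RNA and its recovery by a kit for mRNA, which takes up RNAs without a poly(A) tail poorly. According to the paper, the miCLIP procedure includes poly(A) selection as well. Newly laid eggs transcribe almost nothing from their own nuclei, and carry messages that the mother put into the oocyte.

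The recovered number of reads on genes was 7348843 in T1 miCLIP and 25074120 in T1 mRNA-seq. In T1 miCLIP, 52.5% of the genes had no read, against 24.6% in T1 mRNA-seq. The genes compared had a median of 693 reads in miCLIP and 2458 in mRNA-seq. The median width of the 95% interval for counting error (exact Clopper-Pearson, counting error only) was 0.26 on the log2 scale, which is small beside the ratios described here. Maternal axis and germ plasm genes were present in both libraries. *pgc*, *gcl*, *osk* and *bcd* had 233, 92.6, 207 and 45.5 FPKM in miCLIP, and 175, 76.6, 228 and 52.2 FPKM in mRNA-seq. *nos* had 547 FPKM in miCLIP and 81.6 in mRNA-seq, and *grk* had 1.28 and 6.72. All 21 listed chorion, vitelline membrane and yolk protein genes of the follicle cells were below 1 FPKM, with sums of 0.23 FPKM in miCLIP and 0.37 FPKM in mRNA-seq.

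Values in miCLIP were higher for genes with higher mRNA-seq values, with a Spearman correlation of 0.58 over the 5383 genes, which share 1 length per gene in both libraries. The ratio had a median of 0.28 and an SD of 1.47 across genes, and it ran between -5.15 and 8.76. The values of 1336 genes (24.8%) were more than 2-fold higher in miCLIP, and those of 878 genes (16.3%) were more than 2-fold lower. Beyond 16-fold, 38 genes were higher and 44 were lower in miCLIP. The zero point of the ratio depends on the scaling of the libraries. After scaling both libraries to equal sums the median ratio moved by -0.55, and 684 genes were then higher and 1424 lower, a split of 32.4% higher among the genes past 2-fold against 60.3% with the deposited values. Centring all ratios on 0 gave a split of 45.4%, and with the libraries scaled after leaving out the mitochondrial genome it was 42.9%. Lists of genes are therefore read against the median of all genes, 0.28.

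**Figure D1:**
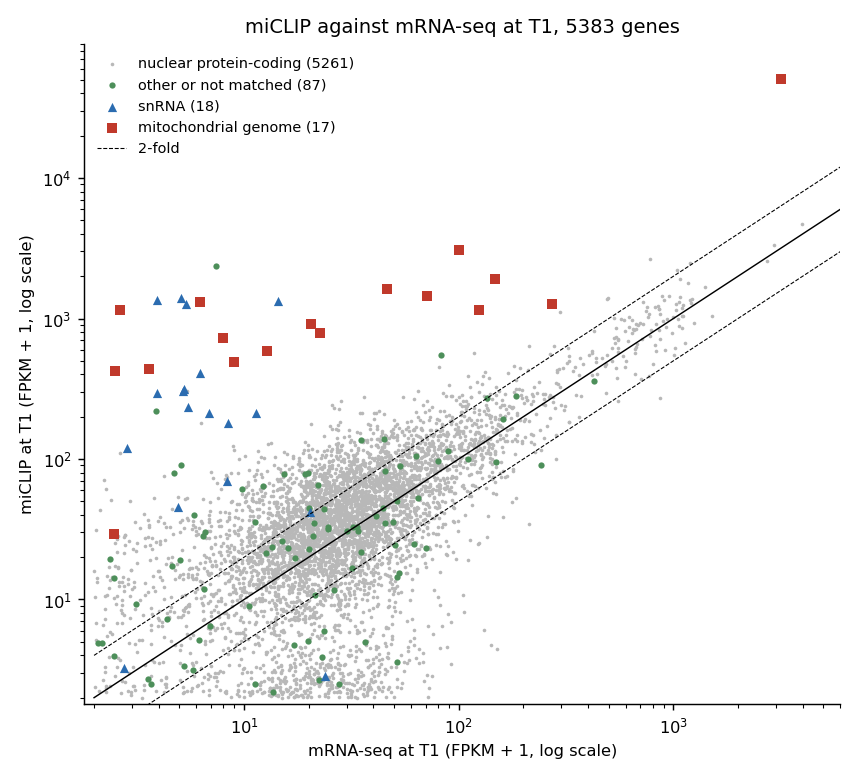
Each point is 1 of the 5383 genes, with its T1 miCLIP value on the vertical axis and its T1 mRNA-seq value on the horizontal axis (FPKM + 1, log scales), marked by RNA class, and the dashed lines mark a 2-fold difference. The genes of the mitochondrial genome and most snRNA genes stand far above the other genes, and a separate cloud of nuclear coding genes lies near the bottom edge at mRNA-seq values of 10 to 100.

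The upper end of the comparison was held by RNAs that are not nuclear protein-coding messages. Among the 5148 genes with at least 20 reads in each library, the 15 highest ratios belonged to 6 mitochondrial genes of complex I subunits, 6 snRNA genes, the non-coding RNAs *CR40469* and *7SLRNA:CR32864*, and a single nuclear coding gene, *CG15641*. Their ratios ran between 5.49 and 8.76. All 15 were also more than 2-fold higher in miCLIP at T2, which the choice did not use, with ratios of 2.66 to 8.93. Of all genes compared at T1 and measured at T2, 10.8% were higher there and 9.62% lower. At T3 to T6, those of the 15 that reached 1 FPKM in both libraries (13 or 14 at each timepoint) were likewise all higher. The others are left out by that minimum. *snRNA:LU* had 0 FPKM in miCLIP and 1.52 in mRNA-seq at T5, and *CG15641* had 0 FPKM in miCLIP at T3 and T6. By contrast, *snRNA:U2:38ABa* fell out at T4 with 3382 FPKM in miCLIP and 0.16 in mRNA-seq.

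The mitochondrial genome encodes subunits of the respiratory chain and of ATP synthase, and its transcripts are made in the organelle. Of its 13 protein-coding genes, 13 were measured and 13 were more than 2-fold higher in miCLIP (24.8% of all genes), with a median ratio of 5.12. *ND6*, a complex I subunit, had 1142 FPKM in miCLIP and 1.63 FPKM in mRNA-seq (5489 and 35 reads). *ND4L* had 1317 FPKM in miCLIP and 5.23 in mRNA-seq, and *ND3* had 726 in miCLIP and 6.95 in mRNA-seq. The complex I genes thus lay highest within the organelle's genes, while the cytochrome c oxidase genes lay lowest. *COX1* had 1924 FPKM in miCLIP and 147 in mRNA-seq (ratio 3.70), *COX2* 1143 and 124 (3.20), and *COX3* 1260 and 271 (2.21). The miCLIP values of the 13 genes span a narrower range than their mRNA-seq values: the lowest in miCLIP was *ND2* at 492 FPKM and the highest *ATP8* at 3094 FPKM, whereas in mRNA-seq they ran between the 1.63 FPKM of *ND6* and the 271 FPKM of *COX3*. The large ribosomal RNA of the organelle, *lrRNA*, had 50723 FPKM in miCLIP and 3177 in mRNA-seq, and took 8.33% of all reads on genes in miCLIP against 0.684% in mRNA-seq. The small ribosomal RNA, *srRNA*, had 208 FPKM in miCLIP and 0.84 in mRNA-seq and so stayed outside the comparison. At T2 the median ratio of the 13 coding genes was 5.97.

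The measured mitochondrial tRNAs followed the same direction. Of the 22 genes, 3 passed the minimum in each library: *trnG* with 419 FPKM in miCLIP and 1.51 in mRNA-seq, *trnY* with 438 and 2.60, and *trnW* with 28.3 and 1.49. These rest on 4 to 7 mRNA-seq reads each. The other 19 were below 1 FPKM in mRNA-seq. Of these, 12 reached 1 FPKM in miCLIP, among them *trnQ* with 632 FPKM in miCLIP and 0 in mRNA-seq, and 7 had no miCLIP read.

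**Figure D2:**
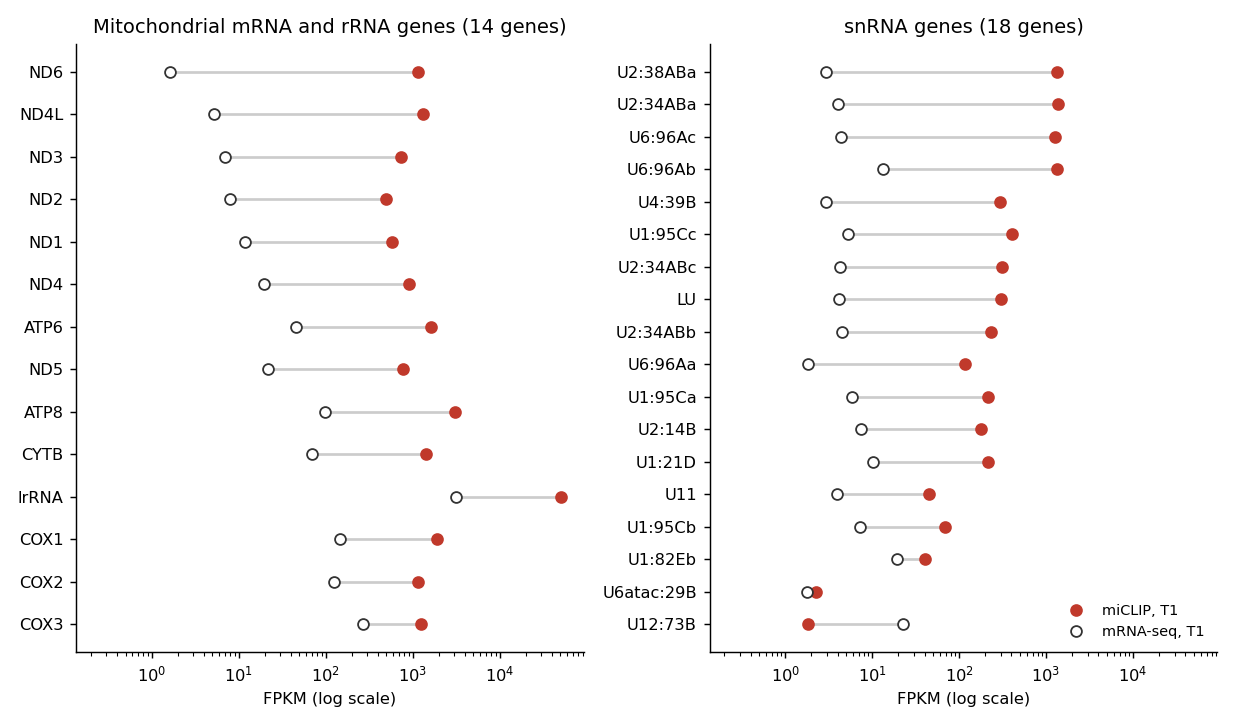
The T1 miCLIP value (filled) and the T1 mRNA-seq value (open) of each gene are joined by a line (FPKM, log scale), with genes ordered by ratio. All 14 mitochondrial mRNA and rRNA genes and 17 of the 18 snRNA genes lie higher in miCLIP, and *U12:73B* is the exception.

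Small nuclear RNAs are short, capped RNAs of the spliceosome that largely lack poly(A) tails. Of the 32 genes in the snRNA list, 18 were measured, with a median ratio of 5.40. In miCLIP 16 were more than 2-fold higher and 1 was lower, against 24.8% and 16.3% of all genes. A further 4 reached 1 FPKM only in mRNA-seq, 3 of them without a miCLIP read, and 5 reached it only in miCLIP. The U2 gene *snRNA:U2:38ABa* had 1345 FPKM in miCLIP and 2.94 in mRNA-seq, and *snRNA:U6:96Ab*, a U6 gene, had 1337 in miCLIP and 13.3 in mRNA-seq. The U1 gene *snRNA:U1:95Cc* had 408 FPKM in miCLIP and 5.24 in mRNA-seq. The RNAs of the minor spliceosome did not share these levels. *snRNA:U11* had a ratio of 3.21, *snRNA:U6atac:29B* had 2.26 FPKM in miCLIP and 1.77 in mRNA-seq, and *snRNA:U12:73B* had 1.85 FPKM (4 reads) in miCLIP and 22.8 FPKM (221 reads) in mRNA-seq, a ratio of -3.06. Of the U5 genes, *snRNA:U5:23D* had no miCLIP read and 4.87 FPKM in mRNA-seq, while *snRNA:U5:38ABa* had 4.32 FPKM (5 reads) in miCLIP and 0.39 FPKM in mRNA-seq. Copies of U1, U2 and U6 are near identical, so that the division of reads among the copies is uncertain. The RNA of the signal recognition particle, which carries ribosomes with secretory proteins to the membrane, gave 217 FPKM in miCLIP and 2.87 FPKM in mRNA-seq at its gene *7SLRNA:CR32864*.

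Among the other non-coding genes the ratio went both ways. Of 35 measured, 12 were more than 2-fold higher in miCLIP and 8 were lower, against 24.8% and 16.3% of all genes. *CR40469* had 2359 FPKM in miCLIP and 6.43 in mRNA-seq. *roX1*, a non-coding RNA of the dosage compensation complex, had 60.6 FPKM in miCLIP and 8.81 in mRNA-seq, and its ratio was 2.65 at T1 and 2.15 at T2. Of the snoRNA genes, many of which guide rRNA modification, 4 were measured and 3 of them were higher (24.8% of all genes). These 4 had a median of 12.5 miCLIP reads. Another 8 listed snoRNA genes reached 1 FPKM in mRNA-seq and had no miCLIP read, and 21 reached it only in miCLIP. Of the miRNA genes 0 were measured. At the other end, *CR43683*, an antisense RNA, had 1.52 FPKM in miCLIP and 26.7 in mRNA-seq. The strand setting of the counting is not given in the sources used here, so that for antisense genes the reads of the partner gene cannot be told apart from their own.

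Within the nuclear coding genes, 5261 in number, 1277 were more than 2-fold higher in miCLIP and 860 lower, and the ratio ran between -5.15 and 5.81. The 25 highest of these were picked out after their values were seen. They had 262 to 2197 reads in miCLIP and 28 to 692 in mRNA-seq, and 18 of the 25 are known only by a CG number. *CG15641* led with 303 FPKM in miCLIP and 4.40 in mRNA-seq, followed by *CG14321* with 110 FPKM in miCLIP and 1.65 in mRNA-seq. Named genes among them were *Pdh*, a photoreceptor dehydrogenase (30.4 and 1.04 FPKM), *Cyp6a9*, a cytochrome P450 (123 and 7.88), *Mlp84B*, a muscle LIM protein (27.1 and 1.60), and *phyl*, a photoreceptor fate gene (27.8 and 1.79). Many of these genes were near 0 in miCLIP at the next timepoint. At T2, 14 of the 25 were below 1 FPKM in miCLIP, although only 8 of the 25 were below 1 FPKM in mRNA-seq. *CG14321* had 110 FPKM in miCLIP at T1 and 0 at T2, with 1.65 FPKM at T1 and 3.28 FPKM at T2 in mRNA-seq. *CG15480* had 114 FPKM in T1 miCLIP and 0.36 in T2 miCLIP, against 7.99 and 14.9 FPKM in the mRNA-seq of T1 and T2. *Cyp6a9* was different, with 41.6 FPKM in miCLIP and 1.99 in mRNA-seq at T2, a ratio of 3.83.

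The lower end was made of messages that were well measured in mRNA-seq and had few reads in miCLIP. The minimum sets this in part, since with 1 FPKM or more in miCLIP only genes with high mRNA-seq values can reach such ratios. The 15 lowest genes, again with at least 20 reads in each library, had 21 to 37 reads in miCLIP and 2616 to 6399 reads in mRNA-seq, and ratios of -5.07 to -4.19. Among the genes with at least 20 reads in each library, *CG15098* had the lowest ratio, with 3.47 FPKM in miCLIP and 149 in mRNA-seq, and *janA*, with fewer reads, lay lower still at 1.03 and 71.1 FPKM. *mago*, a core protein of the exon junction complex that is needed to place *osk* RNA in the oocyte, had 2.49 FPKM in miCLIP and 90.8 in mRNA-seq. *Mlc-c*, a cytoplasmic myosin light chain, had 1.92 and 69.8 FPKM, and *ATPsynE*, an ATP synthase subunit, had 5.03 and 129.6 FPKM. *nudC*, a dynein-associated protein, had 1.56 FPKM in miCLIP and 53.3 in mRNA-seq. The heat-shock gene *Hsp70Ab* had 1.33 and 52.9 FPKM, but it has near-identical copies and its share of their reads is uncertain. *E(var)3-9*, a modifier of chromatin silencing, had 1.87 FPKM in miCLIP and 74.2 in mRNA-seq, and *mrj*, a DnaJ family chaperone, had 1.23 and 42.9. The others were *JhI-21*, an amino acid transporter, *cl*, *Jwa*, *CG6597*, *CG10217*, *CG9253* and *CG8974*, with 1.01 to 3.56 FPKM in miCLIP and 41.3 to 86.8 FPKM in mRNA-seq. At T2 all 15 were measured, and most were no longer far from mRNA-seq: 10 lay within 2-fold and 5 were more than 2-fold lower. *mago* had 106 FPKM in miCLIP and 127 FPKM in mRNA-seq at T2, and *nudC* had 66.6 and 67.4.

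The reads behind these low values set T1 miCLIP apart from T2 miCLIP. Among 2238 nuclear coding genes with 5 to 20 FPKM in T1 mRNA-seq, miCLIP reads per gene had 2 separate modes. One held 8 to 15 reads (193 genes) and the other 512 to 1023 reads (438 genes), and only 43 genes (1.92%) fell between 64 and 127 reads. A further 233 of the genes (10.4%) had no miCLIP read. At T2 the same level of mRNA gave 1 mode at 128 to 255 reads, with 18.4% of 2196 genes between 64 and 127. Of the 878 genes more than 2-fold lower in T1 miCLIP, 497 had fewer than 100 miCLIP reads, and of the 465 more than 4-fold lower, 405 did. Without the genes under 100 miCLIP reads, a limit set after these counts were seen, 381 genes were lower (7.93%) and 1326 higher (27.6%). Of the 497 genes, 467 were measured at T2, with a median ratio of -0.14, and 83 of them (17.8%) were more than 2-fold lower there, against 9.62% of all the genes compared at T1 and measured at T2. Among genes with 20 to 50 FPKM in mRNA-seq the SD of the ratio was 1.42 at T1 and 0.82 at T2. The T1 miCLIP library was the deeper of the pair, with 7348843 reads on genes at T1 and 4251715 at T2.

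**Figure D3:**
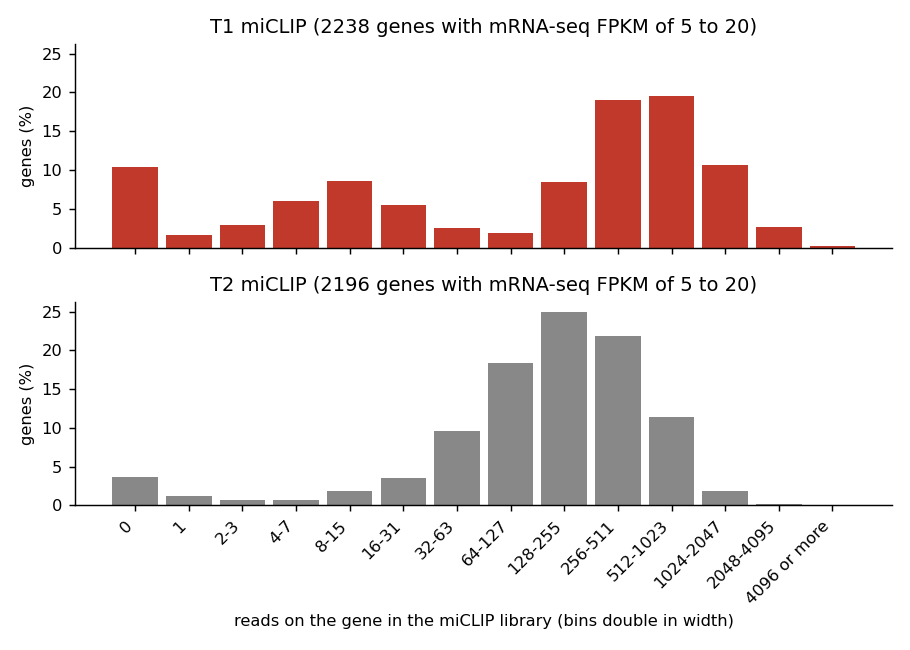
Bars give the percentage of nuclear coding genes, with 5 to 20 FPKM in mRNA-seq, by their number of miCLIP reads, for T1 (above) and T2 (below), in bins that double in width. T1 has a mode at 8 to 15 reads and another at 512 to 1023 reads with 1.92% of genes at 64 to 127 reads, while T2 has 1 mode at 128 to 255 reads.

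A further 1652 genes reached 1 FPKM in mRNA-seq and not in miCLIP, and 802 of these had no miCLIP read. Most were low messages, with a median of 6.14 FPKM, but 605 of them had 10 FPKM or more. *CG13427* had 0 FPKM in miCLIP and 187 FPKM (3333 reads) in mRNA-seq. *ox*, a small subunit of complex III, had 0 and 70.1 FPKM, and *Spase12*, a signal peptidase subunit, had 0 and 41.95 FPKM. Of the 57 genes without a miCLIP read and with 20 FPKM or more in mRNA-seq, 52 were measured on both sides at T2, with a median ratio of -0.47. In the other direction 333 genes reached 1 FPKM in miCLIP and not in mRNA-seq. Among them 153 are nuclear coding, 69 are rRNA genes, 50 are nuclear tRNA genes and 22 are snoRNA genes.

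**Figure D4:**
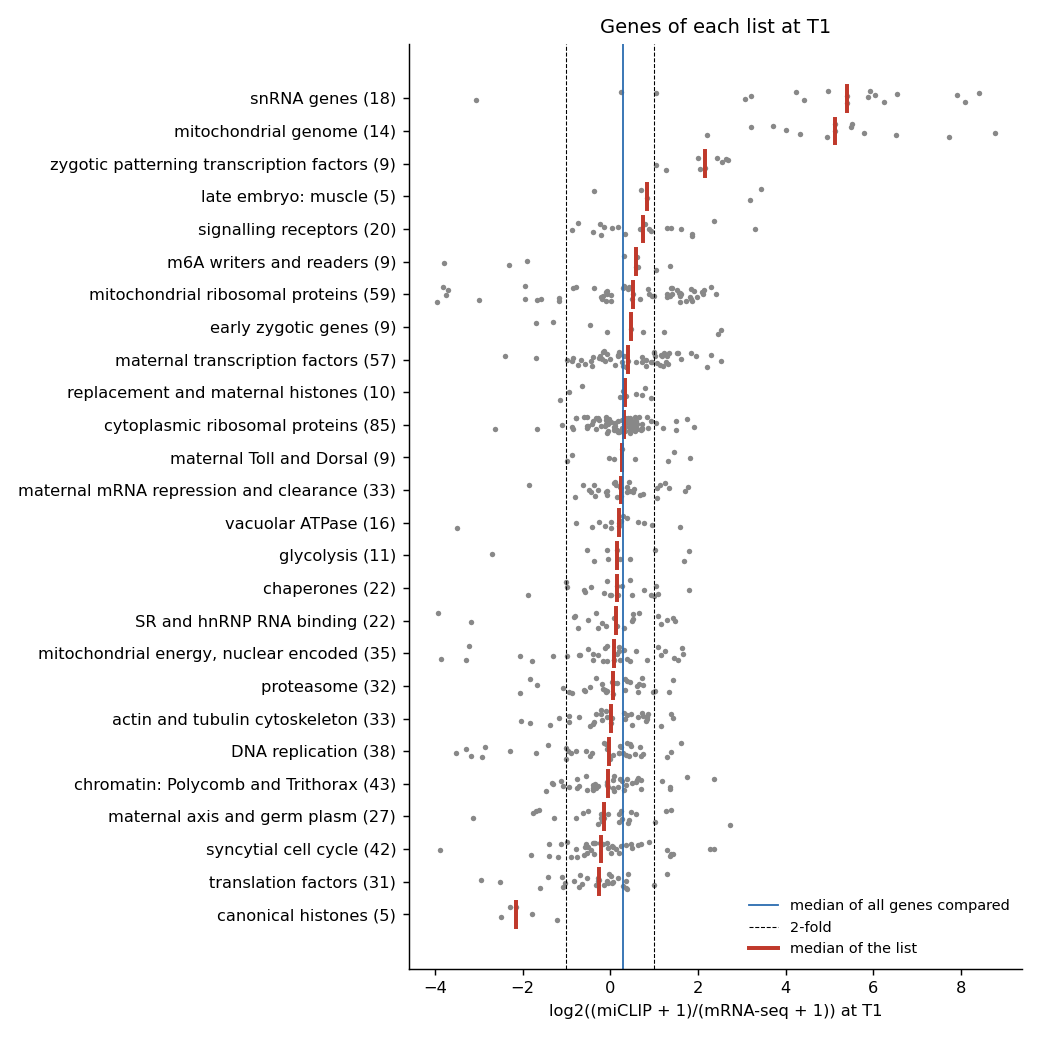
Each grey point is the T1 log2 ratio of 1 gene, each red bar the median of its list (number of genes compared in brackets), the blue line the median of all genes, 0.28, and the dashed lines 2-fold. Apart from the snRNA and mitochondrial lists and the histone copies, list medians lie between -0.27 and 2.16, and single genes of most lists spread over more than 2-fold on both sides.

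The transcription factors that pattern the embryo after zygotic activation were the nuclear coding list with the highest median. Only 9 of 57 were measured, and 9 of 9 were more than 2-fold higher in miCLIP (24.8% of all genes), with a median ratio of 2.16. Their median mRNA-seq value was 1.98 FPKM. Over all genes compared, the median ratio was 2.05 at 1 to 2 FPKM in mRNA-seq, with 74.5% higher. At 2 to 5 FPKM it was 1.46, with 58.1% higher. At such levels the minimum in miCLIP admits mainly genes with a high ratio. *eve*, a pair-rule gene, had 25.7 FPKM in miCLIP and 3.28 in mRNA-seq, *tll*, a terminal gap gene, had 15.2 and 1.98, and *knrl*, a nuclear receptor, had 12.4 and 1.07. However, 28 other genes of the list reached 1 FPKM only in mRNA-seq, and 19 of them had no miCLIP read. *twi*, the mesoderm factor, had 0.05 FPKM in miCLIP and 7.30 in mRNA-seq, *ftz*, another pair-rule gene, had 0 and 6.71, and *sna* had 0.46 and 7.48. The 42 genes that reached 1 FPKM on either side fell into 2 sets by miCLIP reads: 14 had 216 to 446 reads and 28 had 0 to 16 reads. The first set had a median of 1.47 FPKM in mRNA-seq and the second 2.18 FPKM. *Ubx*, the homeotic gene, was in the first set with 10.9 FPKM in miCLIP and 0.39 FPKM in mRNA-seq, and so lay outside the comparison. At T2 the first set had a median of 78 miCLIP reads (0 to 416) and the second a median of 33.5, with 2 genes over 100 reads. With all genes above 0 on either side counted, the median ratio of the list was -0.80.

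Among cell-surface and nuclear receptors of the signalling pathways, 20 of 31 were measured, 7 were more than 2-fold higher in miCLIP and 0 lower (24.8% and 16.3% of all genes), and the median was 0.74. *fz3*, a Frizzled family receptor, had 52.1 FPKM in miCLIP and 4.41 in mRNA-seq. *ptc*, the Hedgehog receptor, had 34.4 and 5.88, and *N*, the Notch receptor, had 32.3 and 11.7. The lowest of the list was *Tl*, the Toll receptor, with 50.1 and 92.4 FPKM. At T2 the ratios of *fz3*, *ptc* and *N* were 0.96, 0.23 and 0.49, each within 2-fold.

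Maternal transcription factors were measured in 57 of 69 cases, of which 19 (33.3%) were more than 2-fold higher in miCLIP and 2 lower, against 24.8% and 16.3% of all genes. The median was 0.39, which was 0.11 relative to all genes, and -0.02 relative to them without genes under 100 miCLIP reads. *brk*, the repressor of Dpp targets, had 17.17 FPKM in miCLIP and 2.17 in mRNA-seq, and its ratio was 2.52 at T1 and 2.17 at T2. *Hr39*, a nuclear receptor, had 55.9 and 10.5 FPKM. *vfl*, which encodes the genome activator Zelda, had 74.7 FPKM in miCLIP and 29.6 in mRNA-seq, a ratio of 1.31. On the low side stood *Myb*, a regulator of the cell cycle, with 8.52 FPKM in miCLIP and 49.5 in mRNA-seq at T1, and with 51.5 and 53.0 FPKM at T2.

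The early zygotic genes, most of them of cellularization, had 9 of 14 measured and a median of 0.47. Past 2-fold, 3 were higher and 2 lower, against 24.8% and 16.3% of all genes. *slam*, needed for membrane growth, had 49.1 FPKM in miCLIP and 35.2 in mRNA-seq, and *Sry-alpha*, an actin regulator, had 4.63 and 17.3 at T1 and 35.1 and 22.4 at T2.

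Genes of the maternal axes and the germ plasm were spread around the other genes, with 27 of 29 measured and a median of -0.14. In miCLIP 4 (14.8%) were higher and 5 (18.5%) lower, against 24.8% and 16.3% of all genes. *nos*, the posterior determinant that represses translation of *hb*, lay highest with 547 FPKM in miCLIP and 81.6 FPKM in mRNA-seq. It kept this difference at T2, with 431 and 59.0 FPKM, a ratio of 2.85. *osk* (207 and 228 FPKM) and *bcd* (45.5 and 52.2 FPKM), the organisers of the posterior and the anterior pole, lay within 2-fold. *spn-E*, a piRNA pathway helicase, lay lowest with 3.70 FPKM in miCLIP and 40.4 in mRNA-seq, and *zuc*, the endonuclease of the same pathway, had 0 FPKM in miCLIP and 18.9 in mRNA-seq. *cad*, a target of Bicoid repression, had 20.2 FPKM in miCLIP and 68.0 in mRNA-seq at T1, but 76.4 and 65.2 FPKM at T2.

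Regulators of maternal mRNA repression and clearance had a median of 0.25, with 33 of 34 measured. Past 2-fold, 7 (21.2%) were higher and 1 (3.03%) lower, against 24.8% and 16.3% of all genes. *orb2*, a CPEB family regulator of translation, lay highest with 8.16 FPKM in miCLIP and 1.70 in mRNA-seq, a ratio of 1.76 at T1 and 1.54 at T2. *Pop2*, a deadenylase of the CCR4-NOT complex, had 157 FPKM in miCLIP and 47.5 in mRNA-seq, and *pum*, the partner of Nanos, had 59.0 and 26.3. *smg*, the activator of maternal mRNA decay, had 221 and 309 FPKM, within 2-fold. *Fmr1*, the fragile X protein gene, was the only one of the list that was lower past 2-fold, with 12.2 FPKM in miCLIP and 46.95 in mRNA-seq, but at T2 it had 57.9 and 34.2 FPKM.

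Genes of the rapid nuclear cycles lay somewhat lower. For the cell cycle list, 42 of 44 were measured with a median of -0.21. Past 2-fold, 6 (14.3%) were higher and 6 (14.3%) lower, against 24.8% and 16.3% of all genes. *CycJ*, an early embryonic cyclin, had 79.4 FPKM in miCLIP and 14.5 in mRNA-seq, and *rap*, an activator of the anaphase-promoting complex, had 127 and 25.7. *cort*, an activator of the same complex in the female germ line, had 1.61 FPKM in miCLIP and 37.8 in mRNA-seq, and *polo*, the mitotic kinase, had 51.8 and 184. *CycB*, among the most abundant of these messages, had 832 and 857 FPKM. In the DNA replication list, 38 of 40 were measured, 3 were higher and 10 (26.3%) lower, against 24.8% and 16.3% of all genes, with a median of -0.04. Of the 33 genes with 100 or more miCLIP reads, 5 were lower, against 7.93% of all genes with that many reads. *Mcm3*, a subunit of the replicative helicase, lay highest, with a ratio of 1.62 at T1 and 1.03 at T2. *RfC3*, a clamp loader subunit, had 2.71 and 41.6 FPKM, and *Psf2*, a subunit of the GINS complex, had 1.01 and 18.6. At T2 only 2 of the 38 were more than 2-fold lower.

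Translation factors had the lowest median of the larger coding lists, -0.27, with 31 of 33 measured. In miCLIP 1 (3.23%) was higher and 7 (22.6%) lower, against 24.8% and 16.3% of all genes. Of the 29 with 100 or more miCLIP reads, 5 were lower, against 7.93% of all genes with that many reads. *eIF6*, a factor of the large ribosomal subunit, had 3.75 FPKM in miCLIP and 35.9 in mRNA-seq, and *Thor*, which binds and blocks eIF4E, had 1.45 and 13.01. *eIF3ga*, a subunit of initiation factor eIF3, was the only one higher past 2-fold, with 277 FPKM in miCLIP and 113 in mRNA-seq. *eIF-4E*, the cap-binding factor itself, had 288 FPKM in miCLIP and 218 in mRNA-seq. At T2, 1 of 31 was lower past 2-fold.

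Ribosomal protein genes were among the most abundant messages in both libraries. For the cytoplasmic ribosome, 85 of 93 were measured with a median of 0.31, close to that of all genes. Past 2-fold, 6 (7.06%) were higher and 3 (3.53%) lower, against 24.8% and 16.3% of all genes. *RpS5b*, an isoform used in the female germ line, had 1116 FPKM in miCLIP and 295 in mRNA-seq, and *RpL34a* lay lowest with 33.4 and 212. For the mitochondrial ribosome, whose proteins are also encoded in the nucleus, 59 of 75 were measured with a median of 0.53. Here 24 (40.7%) were more than 2-fold higher in miCLIP and 11 (18.6%) lower, against 24.8% and 16.3% of all genes, and a further 9 had no miCLIP read and 1 FPKM or more in mRNA-seq. Examples are *mRpL36* with 105 FPKM in miCLIP and 19.1 in mRNA-seq, and *mRpS9* with 1.62 (19 reads) and 39.7. Among genes with a mean of 10 FPKM or more the median of the list minus that of all genes was -0.26 instead of 0.25. At T2 these 2 genes had ratios of 0.21 and -0.48. Of the nuclear genes of the respiratory chain 35 of 37 were measured, with a median of 0.07. Past 2-fold, 7 (20%) were higher and 6 (17.1%) lower, near the 24.8% and 16.3% of all genes. *cype*, a cytochrome c oxidase subunit, had 418 FPKM in miCLIP and 131 in mRNA-seq, and *ND-B17.2*, a complex I subunit, had 2.29 (14 reads) and 47.2.

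The remaining housekeeping lists had medians below the 0.28 of all genes. They were 0.19 for the vacuolar ATPase (16 of 16 measured), 0.15 for chaperones (22 of 26), 0.15 for glycolysis (11 of 12), 0.12 for SR and hnRNP proteins (22 of 23), 0.05 for the proteasome (32 of 46), 0.02 for the actin and tubulin cytoskeleton (33 of 40), and -0.05 for Polycomb and Trithorax genes (43 of 46). With every gene above 0 in either library counted, each of these lists lay above the median of all genes. The difference then ran between 0.03 for Polycomb and Trithorax genes and 0.31 for the vacuolar ATPase. The ends of these lists included *x16*, an SR splicing factor, with 277 FPKM in miCLIP and 99.2 in mRNA-seq. *E(z)*, the histone methyltransferase of a Polycomb repressive complex, had 9.61 and 28.4 FPKM. *calypso*, a Polycomb deubiquitinase, had 77.8 FPKM in miCLIP and 14.3 in mRNA-seq (ratio 2.36 at T1 and 0.74 at T2). *Pfk*, the phosphofructokinase of glycolysis, had 76.98 and 21.5 FPKM (1.79 and 0.18). *ncd*, a kinesin motor of the meiotic spindle, had 137 and 50.3 FPKM (1.42 and -0.40), and *Khc*, the kinesin heavy chain, had 16.1 and 69.1 FPKM (-2.04 and -0.57). The chaperone genes *Hsp68* (18.2 and 4.52 FPKM) and *Trap1* (ratio -1.87) lay past 2-fold at T1 and within 2-fold at T2. In 3 cases the end of one of these lists was past 2-fold on the same side at T2. *Prosbeta3*, a subunit of the proteasome core, had 37.7 FPKM in miCLIP and 159 in mRNA-seq (-2.05 and -1.71). *Vha13* and *VhaM9.7-b*, subunits of the vacuolar ATPase, had ratios of 1.59 and -3.50 at T1 and of 1.28 and -1.03 at T2. *Act5C*, a cytoplasmic actin, had 1071 and 866 FPKM, and *alphaTub84B*, an alpha tubulin, had 1028 and 999.7. The maternal Toll pathway had 9 of 17 genes measured, 3 higher and 0 lower (24.8% and 16.3% of all genes). Its highest gene was *spz*, the Toll ligand, at 152 FPKM in miCLIP and 42.8 in mRNA-seq. The ratio of *spz* was 1.81 at T1 and 1.50 at T2.

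Replacement and maternal histones, whose messages are polyadenylated, lay near all genes, with 10 of 11 measured and a median of 0.33. Past 2-fold, 0 were higher and 1 lower, against 24.8% and 16.3% of all genes. *His2Av*, the fly H2A.Z, had 984 FPKM in miCLIP and 567 in mRNA-seq. The genes of the replacement histone H3.3 were the 2 ends of the list: *His3.3B* had 611 FPKM in miCLIP and 321 in mRNA-seq, and *His3.3A* had 73.2 and 163. The replication-coupled histone genes are present as many near-identical copies, their messages end without a poly(A) tail, and reads cannot be assigned to single copies. Of 111 copies, 5 were measured, all of H2A, and all 5 were more than 2-fold lower in miCLIP (16.3% of all genes), with a median of -2.15. Of the other copies, 37 reached 1 FPKM only in mRNA-seq, all of H1 or H2A, and 17 only in miCLIP. The copies that reached it only in miCLIP were of H2B and H4, such as *His2B:CG33908* with 256 FPKM in miCLIP and 0.18 FPKM in mRNA-seq.

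The genes of the m6A pathway were themselves measured in full, 9 of 9, with a median of 0.57. Past 2-fold, 2 were higher and 3 lower, against 24.8% and 16.3% of all genes. *Ime4*, the catalytic subunit, had 30.6 FPKM in miCLIP and 11.3 in mRNA-seq (539 and 891 reads), and its ratio was 1.36 at T1 and 1.06 at T2. *Hakai*, a ubiquitin ligase of the complex, had 38.7 and 18.3 FPKM. *fl(2)d* (67.5 and 43.2), *nito* (75.02 and 50.05) and the nuclear reader *YT521-B* (ratio 0.61) lay within 2-fold, as did *CG7358* (ratio 0.30). On the low side, *CG7818*, the METTL14 gene, had 1.87 FPKM (24 reads) in miCLIP and 39.1 FPKM (2241 reads) in mRNA-seq, and *vir* had 1.18 and 9.86 FPKM. *CG6422*, the cytoplasmic reader, had 14.4 FPKM in miCLIP and 56.4 in mRNA-seq. The T2 values of these 3 genes were nearer to each other: 24.8 and 53.7 FPKM for *CG7818*, 9.68 and 10.9 for *vir*, and 71.5 and 58.0 for *CG6422*. Scaled to equal sums, *Ime4* had a T1 ratio of 0.86 and *Hakai* of 0.51, both within 2-fold.

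Lists of genes that belong to older embryos were low in level. In whole embryos, fewer cells of a type and less RNA per cell cannot be told apart. Of 19 muscle genes 5 were measured, and the list summed to 224 FPKM in miCLIP and 160 FPKM in mRNA-seq. The contractile genes were on both sides of the comparison. *TpnC47D*, a troponin C, had 78.1 FPKM in miCLIP and 7.66 in mRNA-seq, whereas *up*, the troponin T gene, had 0.27 and 13.5, and *Mlc2*, a myosin light chain, had 0.67 and 17.9. In T2 mRNA-seq *up* and *Mlc2* had 2.51 and 3.97 FPKM and the muscle list summed to 62.4 FPKM. Of 22 neuronal genes 3 were measured, and *elav*, the pan-neuronal RNA-binding protein, had 0.25 FPKM in miCLIP and 1.17 in mRNA-seq. Of the measured neuronal genes *Syx1A*, a syntaxin, had 33.5 FPKM in miCLIP and 18.3 in mRNA-seq, and *Csp*, a synaptic vesicle chaperone, had 30.7 and 53.0. Among cuticle and chitin genes, *Cht2*, a chitinase, had 61.0 FPKM in miCLIP and 15.1 in mRNA-seq, and *Osi6*, of the Osiris family, had 2.42 and 23.0. Of the 27 genes of that list 4 were measured, 15 others reached 1 FPKM only in mRNA-seq, and the list summed to 122 FPKM in miCLIP and 133 FPKM in mRNA-seq at T1, and to 39.4 and 32.5 at T2. Whether embryos older than 45 min took part in these values was not tested.

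The T2 libraries gave the nearest second look at the ratio, from embryos of the next interval. Of the 5383 genes, 5210 were also measured at T2, and the Spearman correlation of the T1 and T2 ratios was 0.23 across them. Against T3 to T6 it was 0.11 to 0.12. Of 1232 genes higher in miCLIP at T1 and measured at T2, 290 (23.5%) were more than 2-fold higher there and 106 (8.60%) lower, where 10.8% of the 5210 genes were higher and 9.62% lower. Of 847 genes lower at T1 and measured at T2, 124 (14.6%) were lower at T2 and 47 (5.55%) higher. Of the 100 highest nuclear coding genes, chosen as a round number after the values were seen, 29 were below 1 FPKM in T2 miCLIP, and 30 of the 67 measured on both sides were higher at T2.

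**Figure D5:**
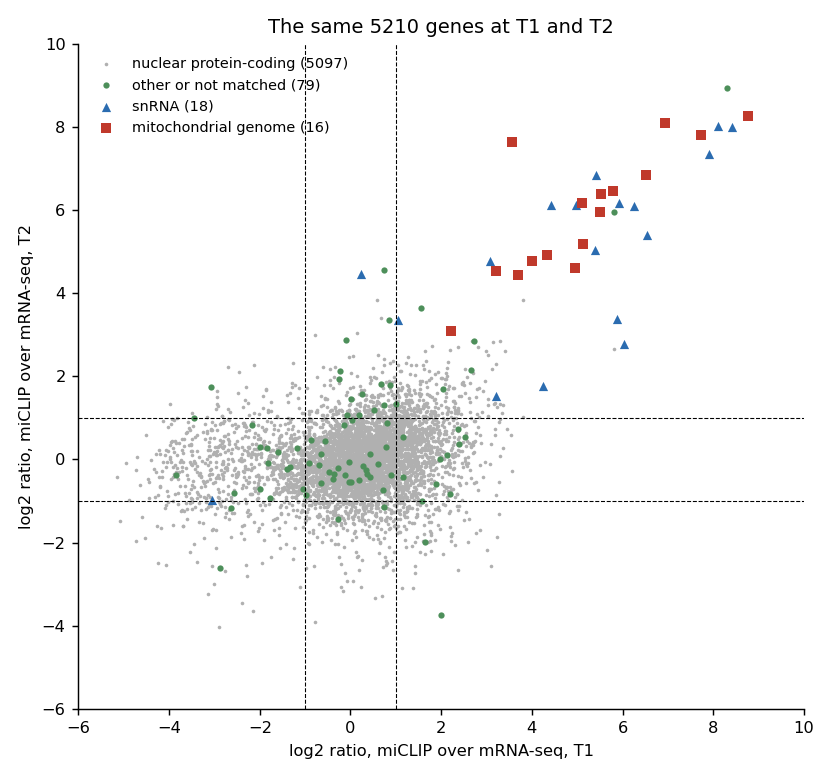
Each point is 1 of 5210 genes, with its log2 ratio at T1 on the horizontal axis and at T2 on the vertical axis, marked by RNA class, and the dashed lines mark 2-fold. Mitochondrial and snRNA genes lie high at both timepoints, while the nuclear coding genes spread more widely at T1 than at T2.

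A small set of nuclear coding genes was far out at both timepoints, taken by the smaller of the 2 ratios after they were seen. *hth*, a homeodomain partner of the Hox proteins, had 25.2 FPKM in miCLIP and 3.06 in mRNA-seq at T1 and 28.4 and 3.06 at T2. Its ratio was 2.69 at T1, 2.86 at T2, and 2.71 or more at T3 to T6. *CG32152* was likewise higher at all 6 timepoints, with ratios of 2.09 to 5.10, although its mRNA-seq value was below 1 FPKM from T3 on. *Irk3*, an inward rectifier potassium channel gene, had ratios of 2.81 at T1 and 2.72 at T2, but -0.14 at T3. *Cyp6a9* had 3.80 and 3.83 at T1 and T2, and -4.02 at T6. At the low end, *MED11*, a Mediator subunit, had 2.16 FPKM in miCLIP and 22.7 in mRNA-seq at T1 and 1.28 and 36.2 at T2, and *CG5626* had ratios of -3.15 and -3.25.

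Both ends of the ratio held shorter genes than its middle. The gene length recovered from the values had a median of 1421 bases in the lowest decile of the ratio, 2320 in the fifth and 1496 in the highest. The share of genes whose annotated exons merge into 1 block was 14.4% in the lowest decile, 7.45% in the fifth and 18.8% in the highest. The SD of the ratio of nuclear coding genes was 1.90 under 1000 bases and 0.94 at 5000 bases or more at T1, and 1.10 and 0.64 at T2. The median ratio did not move with length at T1 (0.35 under 1000 bases and 0.26 at 5000 or more), whereas at T2 it was -0.30 for the shortest and 0.23 for the longest. Genes with an exon that overlaps another gene on the opposite strand made up 48.8% of the lowest decile and 36.2% to 41.4% of the other deciles. The ratio was lower at higher mRNA levels, with medians of 2.05 at 1 to 2 FPKM in mRNA-seq, 0.48 at 10 to 20 and 0.14 at 100 or more, but at the low levels the minimum in miCLIP admits mainly genes with a high ratio.

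Genes with a called cross-linking-induced mutation site (CIMS) at T1, a list made from this miCLIP library and so not independent of it, had a median ratio of 0.32, near the 0.28 of all genes. Of 626 such genes, 614 were measured, of which 117 (19.1%) were more than 2-fold higher in miCLIP and 43 (7.003%) lower, against 24.8% and 16.3% of all genes. They were deeply read, with a median of 2372 miCLIP reads against 693 over all genes, and had a median of 71.1 FPKM in mRNA-seq against 26.8.

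The minimum of 1 FPKM fell in most cases on the miCLIP side. The genes just inside it were *regucalcin*, *CG2064*, *holn1*, *JhI-21* and *CG10466*, at 1.0005 to 1.007 FPKM in miCLIP (6 to 21 reads), with ratios of -4.64 to -0.74. Just outside it were *CG14965*, *Mctp*, *Lcp65Ag2*, *GILT3* and *Cpr51A*, at 0.991 to 0.998 FPKM in miCLIP (5 to 43 reads), with ratios of -4.08 to -1.96.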

How the data were processed

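The authors deposited FPKM per gene in a single table of 14977 genes and 12 value columns, and 0 columns were left without a library. According to the methods, miCLIP reads were split by barcode and freed of PCR duplicates. For miCLIP and mRNA-seq alike, Subread-align mapped the reads to release r5.45. The counting per gene, before normalization across libraries, is described with featureCounts for RNA-seq alignments, a term that the methods use for both assays. Gene lengths and the strand setting are not given in the sources used here. The FPKM values are whole multiples of the value of 1 read, from which reads (or read pairs, which the values cannot tell apart) and gene lengths were recovered. Recovered lengths that were not whole were multiplied by a small whole number where this made them whole. The length was then whole within 0.02 bases for all 5383 genes compared, which is partly set by this step. For 1260 of these genes it matched the exon length in the BDGP6.54 annotation. The recovery and the count of genes past 2-fold were tested on simulated data. The minimum of 1 FPKM, the pseudocount of 1 and the 2-fold limit follow the comparison as it was set. RNA classes came from RefSeq (release 6 assembly), and 14821 symbols matched. Exon blocks and overlaps came from the BDGP6.54 annotation, and no coordinates are used. The genes, lists and alternatives were chosen with earlier results of these data known, and the mitochondrial, tRNA and 5S rRNA lists were completed once the gene symbols were seen. Genes named are the 15 highest and 15 lowest with at least 20 reads in both libraries, list ends, the m6A factors, and those nearest to the minimum, and other genes were named after their values were seen. The result of 1 gene that this rule names is not reported here. Alternatives changed the pseudocount, the filters on low values and the scaling. Python 3.11.15, pandas 2.3.3 and SciPy 1.17.1 were used.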

Additional observations from a re-analysis of the deposited data

Results flagged for a closer look

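Some deposited ratios differed in sign between T1 and T2, a difference that was not tested since each timepoint has 1 library a side. The median log2 ratio of cytoplasmic ribosomal protein genes was 0.31 at T1 and -0.66 at T2, and that of mitochondrial ribosomal protein genes was 0.53 and -0.30. That of replacement and maternal histones was 0.33 at T1 and -0.33 at T2. Over all genes the median was 0.28 at T1 and 0.01 at T2. The signs at T1 depend on the scaling. With the libraries scaled to equal sums the T1 medians were -0.25 for cytoplasmic ribosomal protein genes, -0.02 for mitochondrial ribosomal protein genes and -0.23 for replacement and maternal histones. Relative to the median of all genes at their timepoint, the cytoplasmic ribosomal protein genes lay at 0.03 at T1 and -0.67 at T2, the mitochondrial ones at 0.25 and -0.31, and these histones at 0.04 and -0.34. *ERR*, a nuclear receptor that drives glycolytic genes in the embryo, had a ratio of -2.70 at T1 (1.09 FPKM in miCLIP and 12.5 in mRNA-seq) and of 2.23 at T2 (31.4 and 5.91). Its T1 miCLIP value is near the minimum and rests on 22 reads, so that it is among the genes under 100 reads. Of the 5210 genes measured in both, 47 were lower at T1 and higher at T2 past 2-fold, and 106 the reverse.

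Other signals lie in genes that the comparison leaves out because mRNA-seq is below 1 FPKM. The 96 5S rRNA genes, which are near identical, summed to 5751 FPKM (7070 reads) in T1 miCLIP and 0.18 FPKM (1 read) in T1 mRNA-seq. The nuclear tRNA genes summed to 1480.5 FPKM in T1 miCLIP and 3.56 FPKM in T1 mRNA-seq. The mitochondrial *srRNA* had 208 FPKM in T1 miCLIP and 0.84 FPKM in T1 mRNA-seq.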

How the results depend on the processing

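Each side has 1 library. No paired analysis was possible because no group has a second replicate, and no replicate could be left out. Under the alternatives of pseudocount, filter and scaling other than the limit of 100 miCLIP reads, the number of genes higher in miCLIP lay between 684 and 1643 and the number lower between 684 and 2468, against 1336 and 878. Scaled to equal sums, 684 genes were higher and 1424 lower. With every gene above 0 in either library counted, 2468 were lower and the Spearman correlation was 0.80, and with a mean of 10 FPKM or more it was 0.44. Without genes under 100 miCLIP reads, an alternative chosen after seeing the data, 381 genes were lower. For list medians past 2-fold, the direction turned in 4 cases. With every gene above 0 in either library they were -0.80 for zygotic patterning transcription factors, -1.29 for cuticle and chitin genes and -0.38 for snoRNA genes. With a mean of 10 FPKM or more it was 4.47 for canonical histones, since other copies then enter. Lists changed their side of the median of all genes under other filters: 16 with every gene above 0 in either library counted, 5 without genes under 100 miCLIP reads, 3 without genes under 20 reads and 3 with a mean of 10 FPKM or more. The cause was not tested. None of the list ends, m6A factors and 15 genes of each end that were past 2-fold turned its direction, but smaller ratios did, such as *CG7358* at -0.24 with equal sums. At 20 miCLIP reads, the counting interval alone spans over 1 on the log2 scale.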
